A study of Mus musculus with 4 samples.

Results

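Cck, Scg2, Penk and Vgf encode precursors of secreted peptides, and their transcripts were measured here in mouse embryonic fibroblasts (MEFs) from which the Rb tumor suppressor gene was deleted, with or without a retrovirus for Rb. The genes were picked from values on these same arrays, because Cck had one of the largest rises with dCDK Rb and Scg2 fell to background there. Differences between arrays are therefore descriptions and carry no test. All probes of the 4 genes were taken, which were 6 of 45281 probes on the array and 4 of 30872 gene names. Symbols of 3 genes matched as written, and Penk, listed under its older symbol Penk1, was matched by its Entrez gene number. One probe per gene, 4 of the 6, was detected on at least 1 array, where detected means a detection p-value below 0.01.

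Neuropeptides are made as larger precursors that enter the secretory pathway, are cut at basic residues by prohormone convertases, and are trimmed and amidated before release. Cck gives cholecystokinin, a peptide of gut endocrine cells and brain neurons. Penk gives the enkephalins, which are opioid peptides, and is also expressed by some non-neuronal mesenchymal cells. Scg2 and Vgf belong to the wider granin group, acidic proteins of dense-core vesicles that are themselves cut into peptides such as secretoneurin, from Scg2, and TLQP peptides, from Vgf.

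Total RNA of 4 cultures was measured on 1 Illumina MouseWG-6 v2.0 BeadChip array each. The MEFs were of FVB;129 strain and carried LoxP sites around both Rb alleles, and neither the number of embryos nor their age is given in the sources used here. Parental cells received a solution without TAT-Cre, a cell-permeable recombinase, and medium without virus. Rb-deleted cells received TAT-Cre and medium without virus. WT Rb cells received TAT-Cre and a retrovirus for wild type Rb, and dCDK Rb cells received TAT-Cre and a retrovirus for the phospho-mutant dCDK Rb, which lacks Cdk phosphorylation sites. Each treatment was given 2 times for 1 hr, 3 hr apart. By the study's methods, but not the labels, all 4 cultures were also released from contact inhibition for 4 hr and treated with doxorubicin, a DNA-damaging topoisomerase II inhibitor, at 100 ng/ml for 3 hr. No array of cells infected with an empty virus was analysed, so effects of infection and of the Rb protein cannot be told apart where an infected array is set against an uninfected one. Only parental cells went without TAT-Cre, so in each comparison with them deletion of Rb and exposure to the recombinase cannot be told apart. Both retroviral arrays were infected alike.

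With 1 array per condition, no difference has a replicate check, and errors below are standard errors over the beads of a probe, which leave out the variation between cultures. Mean intensity was 336 to 346 on the 4 arrays, and the dimmest detected probe on each array had an intensity of 53.8 to 58.4. At its brighter probe Rb1, the deleted gene, was lower than in parental cells on all 3 TAT-Cre arrays, by log2 differences of -1.69 to -1.88. Its WT Rb and dCDK Rb values were only 0.19 and 0.13 above that of Rb-deleted cells. This probe, at transcript position 4421, thus did not show the retroviral Rb, and whether the viral transcript holds its bases is not given in the sources used here. By immunoblot the study reported retroviral Rb protein at physiologic levels in Rb-deleted MEFs, so the probe cannot be read as a lack of re-expression. All 11 fibroblast markers were detected on each array, whereas of 17 neuron or neuroendocrine markers only 3 or 4 were. Stmn2, Map2 and Ncam1 were detected on all arrays and Nefm on the WT Rb array only, while Chga, Chgb, Syp, Snap25, Th and Dbh were at background on all 4. Summed intensity of the 17, undetected ones included, was 2716 to 3037, of which Ncam1 alone made up 1703 to 1944. Endothelial markers were undetected. In each pair of arrays at most 1 fibroblast, epithelial, muscle or glial marker per list passed 1.6-fold in each direction. In bulk samples fewer cells of a type and less RNA per cell cannot be told apart.

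Cck, on chromosome 9, was lowest on the parental array and highest on the dCDK Rb array. Its single probe starts at position 393 of the transcript. The probe is shown since all Cck values rest on these bases:
Cck probe: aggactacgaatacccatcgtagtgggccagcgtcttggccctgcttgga

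Intensity of Cck was 141 in parental cells (bead standard error 5.58), 288 in Rb-deleted cells (12.3), 298 in WT Rb cells (9.89) and 565 in dCDK Rb cells (15.6). The Rb-deleted and WT Rb arrays did not differ beyond bead error, at a log2 difference in normalized signal of 0.06 (bead standard error 0.09, 95% interval -0.11 to 0.23). Every other pair differed by more than 1.6-fold, the filter of the study, and by more than 2 bead standard errors. Relative to parental cells, the log2 difference was 1.19 in Rb-deleted cells (0.10), 1.25 in WT Rb cells (0.09) and 2.28 in dCDK Rb cells (0.08), the last a 4.86-fold higher signal. The step from WT Rb to dCDK Rb cells was 1.03 (0.07), and that from Rb-deleted to dCDK Rb cells was 1.09 (0.08). Background correction enlarges such ratios: Cck was 2.29-fold higher in Rb-deleted than in parental cells after it, whereas the ratio of deposited intensities was 2.04.

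Of 10 leukocyte markers 7 were detected on each array, and all 7 were lower on the 3 TAT-Cre arrays than in parental cells. Relative to parental cells, 5 of the 7 were past 1.6-fold and lower in Rb-deleted, 7 in WT Rb and 6 in dCDK Rb cells. Of all genes tested 3.06%, 2.61% and 3.44% were, in the same order. Summed intensity of the 10, undetected ones included, was 9187 in parental cells and 4379 to 5381 on the other 3 arrays. None of the 7 passed 1.6-fold between any pair of the 3 TAT-Cre arrays. Ptprc, which marks nearly all leukocytes, was not detected on any array. The part of leukocytes in the differences of Cck and Scg2 was not tested.

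Scg2, on chromosome 1, was highest in Rb-deleted cells and was not detected in dCDK Rb cells. It has a probe at transcript position 1686, which carries all measurable signal, and another at 2420, which was at background on all 4 arrays. G and C make up 52% of the first and 24% of the second. The bases of the first are shown since all Scg2 values rest on them:
Scg2 probe at 1686: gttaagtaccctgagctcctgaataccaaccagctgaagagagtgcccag

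At position 1686 the intensity of Scg2 was 103 in parental cells (bead standard error 5.08), 174 in Rb-deleted cells (8.85), 126 in WT Rb cells (4.78) and 51.2 in dCDK Rb cells (2.26). On the dCDK Rb array the detection p-value was 0.037, and the dimmest detected probe there had an intensity of 55.5. The second probe had intensities of 28.5 to 34.2, so it can neither add to nor contradict the first. Relative to parental cells, the log2 difference of Scg2 was 0.95 in Rb-deleted cells (0.12), or 1.93-fold, and 0.39 in WT Rb cells (0.11), which is short of 1.6-fold. WT Rb cells were at -0.56 relative to Rb-deleted cells (0.11), again beyond 2 bead standard errors but short of 1.6-fold.

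In dCDK Rb cells only bounds can be given for Scg2. They set the brighter array against the dimmest detected probe on the dCDK Rb array, which was above the Scg2 probe's own value, on background-corrected and normalized signal. On that scale parental cells exceeded it at least 2.46-fold, Rb-deleted cells at least 4.75-fold and WT Rb cells at least 3.22-fold. The size of these bounds depends on the correction. As log2 differences they were -1.30, -2.25 and -1.69, and became -0.89, -1.65 and -1.18 on the deposited intensities and -0.77, -1.49 and -1.05 with an offset of 50 added in the correction. If a detection p-value below 0.05 is accepted, Scg2 counts as detected there and the measured log2 differences are -1.50 (0.14), -2.45 (0.14) and -1.89 (0.12). In each of these settings all 3 other arrays lay above the dCDK Rb array by more than 1.6-fold.

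**Figure D1:**
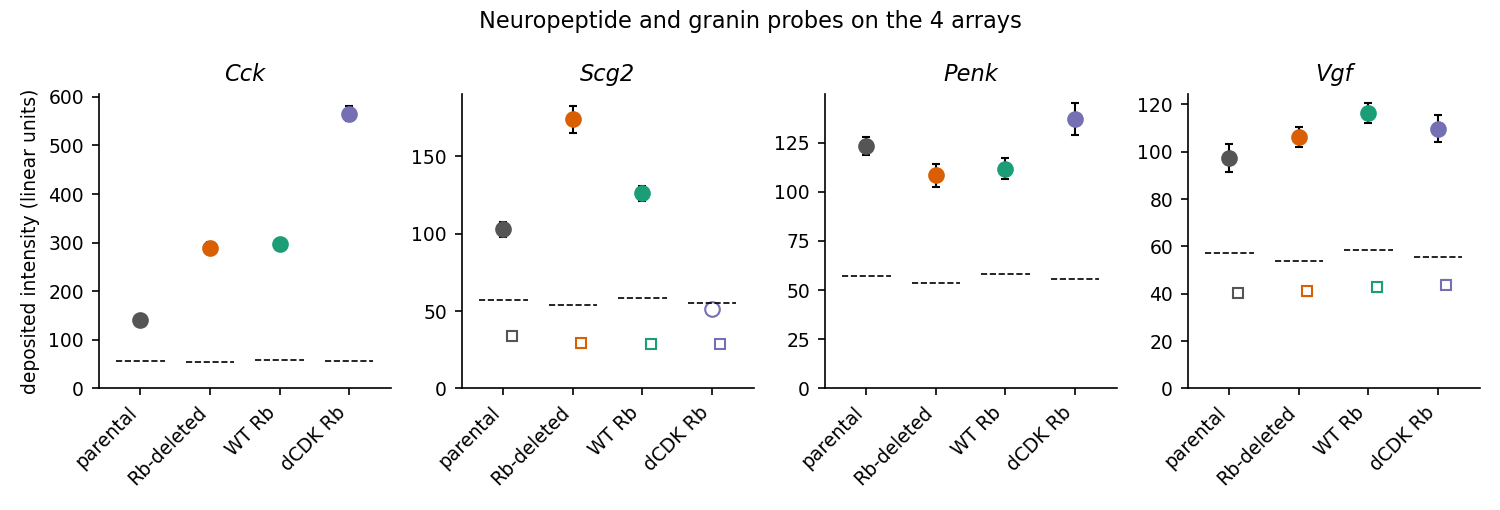
Deposited intensity (linear units) of each probe of Cck, Scg2, Penk and Vgf on the 4 arrays, with bead standard errors, 1 array per condition. Circles are the detected probe of each gene and squares the second probe of Scg2 and Vgf, open symbols are not detected, and dashed lines are the dimmest detected probe of each array. Cck is highest at 565 on the dCDK Rb array, where Scg2, at 51.2, lies under the dashed line.

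RefSeq promoter windows, each from 250 bases before to 50 bases after an annotated start (assembly GRCm38.p6), were available for Cck and Scg2, the pair that was higher in Rb-deleted cells. They were searched on both strands for the cAMP response element TGACGTCA, which CREB and related factors bind, for the shorter relative TGCGTCA, and for the E2F sites TTTGGCGC, TTTCGCGC and TTTCCCGC. None of these motifs contains another. Each promoter held 1 match, and the 100 bases before each start are printed with that match in capitals:
Scg2, chr1:79440027-79440126, minus strand: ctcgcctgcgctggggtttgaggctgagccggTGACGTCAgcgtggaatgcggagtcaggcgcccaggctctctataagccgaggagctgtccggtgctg
Cck, chr9:121495695-121495794, minus strand: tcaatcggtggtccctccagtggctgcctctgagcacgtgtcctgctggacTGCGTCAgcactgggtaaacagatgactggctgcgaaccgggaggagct

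In Scg2 the full element begins 68 bases before the start, and in Cck the shorter one begins 49 bases before it. Of 32851 promoter windows of this length 1.79% held TGACGTCA and 2.12% held TGCGTCA. The E2F sites, held by 0.514%, 0.323% and 1.07% of windows in the order given, did not occur in these windows. A match of letters is not a measured binding site, and these arrays hold no binding data.

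Penk, on chromosome 4, and Vgf, on chromosome 5, stayed within 1.6-fold over all 4 arrays. The single Penk probe starts at position 824, and its bases are given because the table lists them under another gene symbol:
Penk probe: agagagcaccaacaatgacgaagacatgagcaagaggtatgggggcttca

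Intensity of Penk was 123 in parental cells (bead standard error 4.68), 108 in Rb-deleted cells (5.79), 112 in WT Rb cells (5.28) and 137 in dCDK Rb cells (8.36). The dCDK Rb array was highest, with a log2 difference of 0.43 from Rb-deleted cells (0.14) and of 0.40 from WT Rb cells (0.14). Both exceed 2 bead standard errors but are short of 1.6-fold, and the 95% intervals run from 0.15 to 0.72 and from 0.12 to 0.68. Relative to parental cells Penk was at -0.21 in Rb-deleted cells (0.12), -0.17 in WT Rb cells (0.11) and 0.23 in dCDK Rb cells (0.13), all within 2 bead standard errors.

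Vgf has a probe at transcript position 2214, detected on all arrays, and another at position 39, near the start of the transcript, which had intensities of 40.2 to 43.8 and was at background on all 4. At position 2214 the intensity of Vgf was 97.3 in parental cells (bead standard error 5.97), 106 in Rb-deleted cells (4.19), 116 in WT Rb cells (4.14) and 109.7 in dCDK Rb cells (5.61). The only pair beyond 2 bead standard errors was WT Rb and parental cells, at a log2 difference of 0.34 (0.14). In dCDK Rb cells Vgf was at 0.25 from parental cells (0.15), with an interval of -0.04 to 0.54, and at -0.09 from WT Rb cells (0.11).

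**Figure D2:**
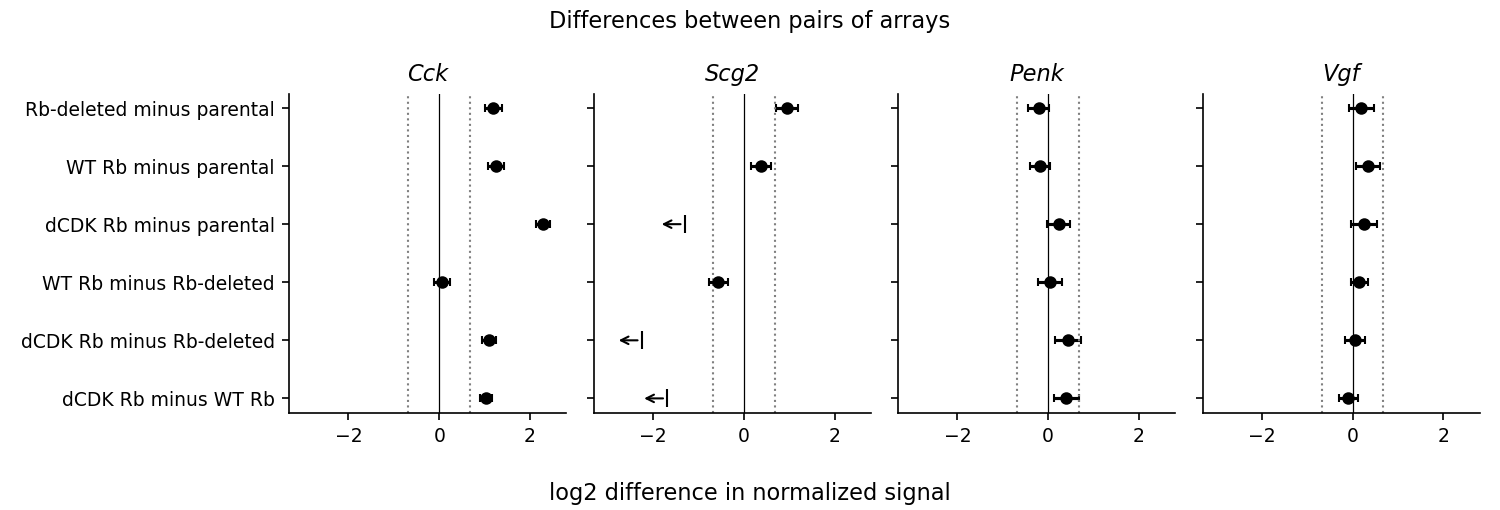
Log2 difference in normalized signal for the detected probe of each gene in the 6 pairs of arrays (first minus second). Points carry 95% intervals from the bead standard errors of both arrays, arrows start at the bound where Scg2 is not detected, and dotted lines mark 1.6-fold. Cck passes 1.6-fold in every pair except WT Rb minus Rb-deleted, while the points of Penk and Vgf stay inside the dotted lines.

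Between Rb-deleted and parental cells Cck and Scg2 were past 1.6-fold and higher, 2 of the 4 genes, where 2.2% of the 12286 genes tested were higher and 3.06% lower by that much. Between WT Rb and parental cells Cck alone was past 1.6-fold, and of 11898 genes 0.941% were higher and 2.61% lower. Between dCDK Rb and parental cells Cck was among the 2.69% of 12087 genes that were higher and Scg2 among the 3.44% that were lower. None of the 4 genes passed 1.6-fold between WT Rb and Rb-deleted cells, where 0.557% of 12199 genes were higher and 0.5% lower. From Rb-deleted to dCDK Rb cells the genes past 1.6-fold were Cck, among 2.36% of 12361 genes that were higher, and Scg2, among 1.99% that were lower. From WT Rb to dCDK Rb cells they were again Cck, among 0.884% of 11995 genes, and Scg2, among 1.06%. The dCDK Rb comparisons chose the genes, and the 3 comparisons with parental cells share 1 array, so nothing is read from these counts.

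By place among all genes tested, Cck was number 33 from the top in Rb-deleted cells relative to parental cells, number 9 in WT Rb cells and number 5 in dCDK Rb cells. Scg2 was number 81 from the top in Rb-deleted cells. In dCDK Rb cells the probe of Scg2 was not detected, so it has no firm place there. Penk and Vgf lay in the body of the distribution, between -0.21 and 0.34 on the log2 scale in all 3 comparisons with parental cells.

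**Figure D3:**
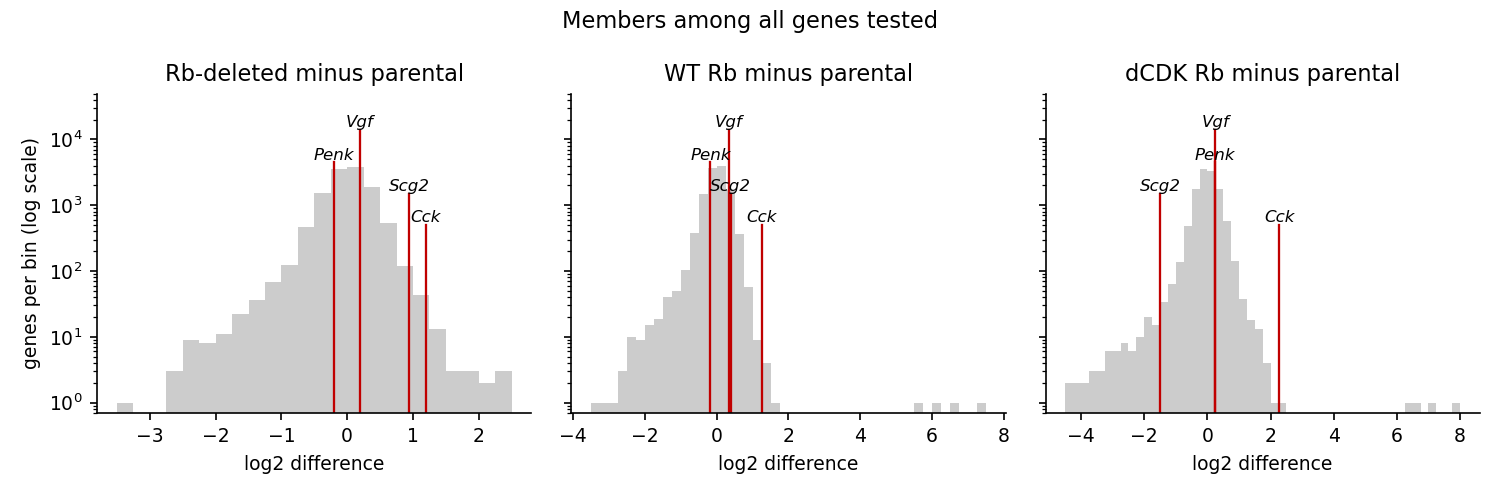
Number of genes (log axis) by log2 difference from parental cells, in bins of 0.25, with the 4 genes marked by lines, 1 panel for each other array with its own horizontal scale, all genes tested included. In the dCDK Rb panel 4 genes lie above Cck. Cck moves from 1.19 to 2.28 between the Rb-deleted and dCDK Rb panels and Scg2 from 0.95 to -1.50, the last being the normalized value of an undetected probe.

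Genes with the most similar pattern were found by the root mean square difference of log2 values over the 4 arrays, after each gene was centred on its own mean. For Scg2 this measure uses the value of an undetected probe on the dCDK Rb array, so its distances and their order are approximate. By it the nearest of 8981 genes was Eln, which encodes elastin, at 0.071. Intensity of Eln was 1904 in parental, 3174 in Rb-deleted, 2080.3 in WT Rb and 588 in dCDK Rb cells, and unlike Scg2 it stayed well above background on the last array. Next came Col14a1, a fibril-associated collagen, at 0.247, and Cdkn1c, the Cdk inhibitor p57, at 0.268. Intensity of Cdkn1c was 4613, 8789, 7049 and 2504 on the arrays in the same order. Each of the 3 genes was highest in Rb-deleted cells and lowest in dCDK Rb cells.

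For Cck no gene came as near. The closest of 8892 were Crct1 and Lce3f, at 0.286 and 0.301, both genes of the cornified envelope cluster, and Prl2c2, a prolactin family member, at 0.325. Intensity of Crct1 was 722 in parental, 977 in Rb-deleted, 1135 in WT Rb and 1978 in dCDK Rb cells. These 3 genes share the highest value in dCDK Rb cells, but their Rb-deleted values lay below those of WT Rb cells, whereas Cck was level on these 2 arrays. Likeness over 4 arrays is a description of these libraries and says nothing of shared control. Penk and Vgf were not matched, since their range over the arrays was under 1.6-fold.

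**Figure D4:**
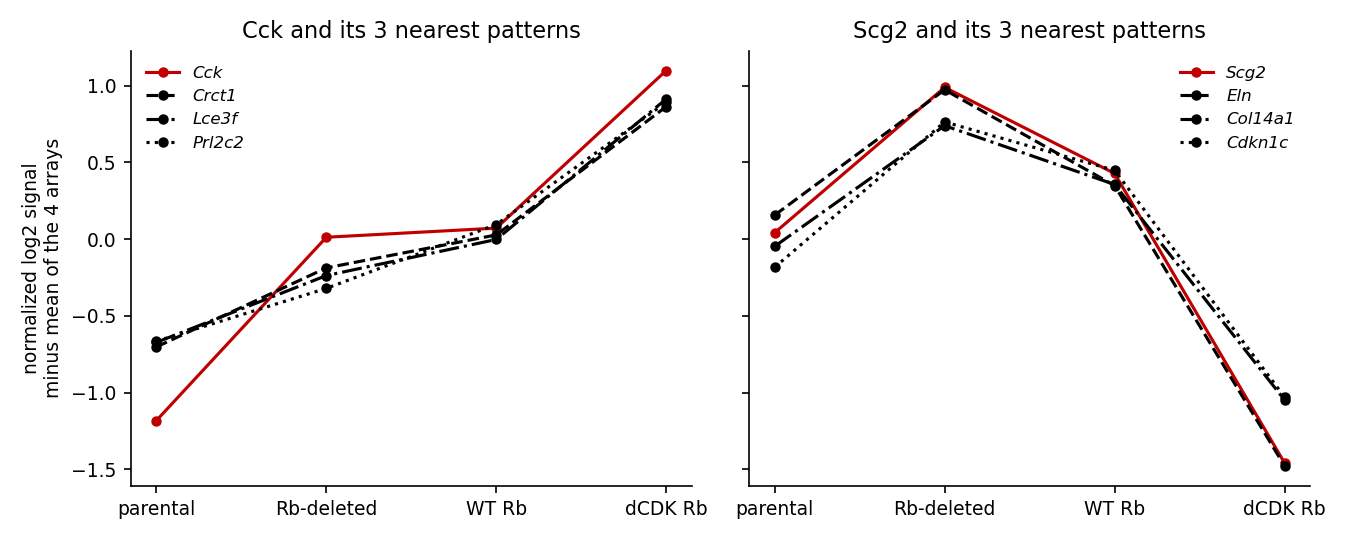
Normalized log2 signal on each array minus the mean of the 4 arrays, for Cck (left) and Scg2 (right) in red and their 3 nearest genes in black. Eln follows Scg2, whose dCDK Rb point is an undetected probe, at a root mean square difference of 0.071, and the nearest gene to Cck is at 0.286.

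Other peptide precursors were mostly silent in these cells. Of 58 on the array, Cck and Penk left out, 14 were detected on at least 1 array and 9 on all 4, and all precursor counts below leave these members out. Npy, Tac1, Adm, Edn1, Nppb, Nmu, Calca, Kng1 and Bdnf were the 9. Between dCDK Rb and parental cells 1 of 12 tested was past 1.6-fold and higher and none lower, beside 2.69% and 3.44% of all genes tested. The median log2 difference was 0.23, beside -0.01 over all genes tested. In Rb-deleted cells none of 13 passed, beside 2.2% higher and 3.06% lower over all genes, with a median of -0.07 beside 0.02. In WT Rb cells 1 of 13 was higher, beside 0.941% of all genes, with a median of 0.10 beside 0.01. It was Nppb, the natriuretic peptide precursor, which was named after its values had been seen, at an intensity of 804 in WT Rb cells and 476 in parental cells and a log2 difference of 0.84 (0.05).

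Tac1 and Kng1 were, like Cck, highest in dCDK Rb cells, but unlike Cck they were lowest in Rb-deleted cells. Tac1 encodes the precursor of substance P, and its intensity was 337 in parental, 222 in Rb-deleted, 295 in WT Rb and 406 in dCDK Rb cells. From Rb-deleted to dCDK Rb cells it was higher by 1.00 on the log2 scale (0.07). Kng1, the kininogen from which bradykinin is cut, had intensities of 136, 94.7, 107 and 195 in the same order. It was higher in dCDK Rb cells by 1.29 relative to Rb-deleted cells (0.11) and by 0.68 relative to parental cells (0.08), the last just past 1.6-fold, and it was past 1.6-fold relative to WT Rb cells as well. Gal, the galanin precursor, was detected in parental and dCDK Rb cells only, at intensities of 58.6 and 67.7. On background-corrected signal it was at least 1.44-fold higher in dCDK Rb than in Rb-deleted cells, a bound that does not reach 1.6-fold although its normalized difference, 0.84, does. Npy stayed between 229 and 251. From Rb-deleted to dCDK Rb cells 3 of 13 precursors, Tac1, Kng1 and Gal, were past 1.6-fold and higher by normalized difference, where 2.36% of all genes tested were, and the median was 0.13 beside -0.03 over all genes.

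**Figure D5:**
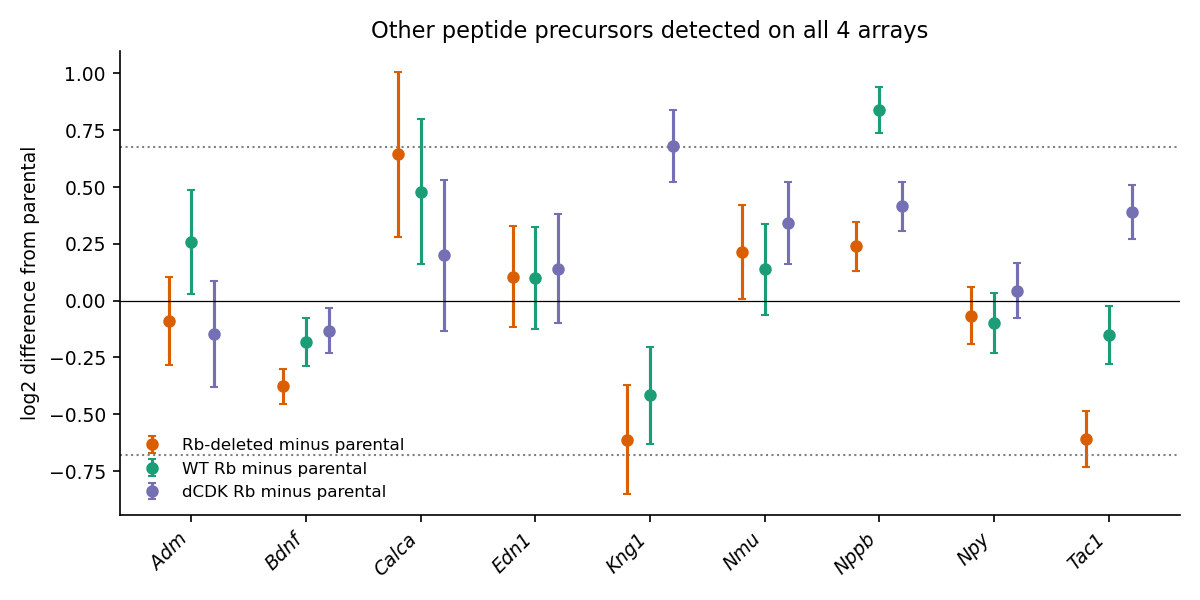
Log2 difference from parental cells of the 9 other peptide precursors detected on all 4 arrays, with 95% intervals from bead standard errors, colored by array. Dotted lines mark 1.6-fold. Nppb in WT Rb cells (0.84) and Kng1 in dCDK Rb cells (0.68) are the values outside the dotted lines.

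Of the other granins, Chga, Chgb, Scg3 and Pcsk1n were not detected on any array, and Scg5, a chaperone of the convertase PC2, was detected in dCDK Rb cells only. Intensity of Scg5 was 56.9 in parental, 49.6 in Rb-deleted, 52.6 in WT Rb and 66.2 in dCDK Rb cells. On background-corrected signal it was at least 1.29-fold higher in dCDK Rb than in parental cells, which is short of 1.6-fold.

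Enzymes that process precursors were widely present, with 14 of 17 detected on at least 1 array. Furin, a convertase of the trans-Golgi network, had intensities of 3992 to 4465, and Cpe, the carboxypeptidase that trims basic residues, of 2169 to 3338. Neither passed 1.6-fold in any pair. Pcsk6, a convertase also known as PACE4, had intensities of 446 in parental, 489 in Rb-deleted, 398 in WT Rb and 247 in dCDK Rb cells, and was at -0.85 in dCDK Rb relative to parental cells (0.06). Cpz, a secreted carboxypeptidase, had intensities of 64.5, 116, 85.9 and 63.4 in the same order, and was at 1.19 in Rb-deleted relative to parental cells (0.13). Pcsk6 and Cpz were thus both highest in Rb-deleted cells, as was Scg2, but Cpz was level in parental and dCDK Rb cells. Pcsk1 and Pcsk2, the convertases of neuroendocrine vesicles, were not detected.

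Among 12 peptide-degrading enzymes, each detected on at least 1 array, Mme, the neprilysin that cleaves enkephalins, was past 1.6-fold and lower in dCDK Rb than in parental cells, at -0.78 (0.15). The other genes of this list past 1.6-fold by normalized difference in any pair were Ace and Lnpep, both close to background, with bounds of only 1.13-fold to 1.18-fold. Of 9 listed receptors for the peptides 8 are on the array, and Oprd1, another opioid receptor, is not. Only C1qbp and Nrp1 of the 8 were detected. The rest were at background on all 4 arrays, among them Cckar and Cckbr for cholecystokinin and Oprm1 and Oprk1 for opioids. None of 9 detected genes of dense-core vesicle exocytosis passed 1.6-fold in any pair. Over all genes tested at most 2.69% were higher and at most 3.44% lower by that much.

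Genes regulated through cAMP response elements were listed as well, since the full element lies in the printed Scg2 promoter and its shorter relative in that of Cck. Of 14 detected on all 4 arrays, none was past 1.6-fold in WT Rb or dCDK Rb cells relative to parental cells, and Ptgs2 alone was so in Rb-deleted cells. Ptgs2, the inducible cyclooxygenase, was at -1.12 there (0.13) and, opposite to Scg2, was at 0.78 in dCDK Rb relative to Rb-deleted cells (0.12). Median log2 differences of these genes from parental cells were -0.18 on the Rb-deleted, 0.00 on the WT Rb and -0.07 on the dCDK Rb array. Over all genes tested they were 0.02, 0.01 and -0.01 in the same order. None of 9 detected CREB and AP-1 factors passed 1.6-fold in any pair. Rest, the repressor of neuronal genes outside the nervous system, was itself not detected, at intensities of 37.1 to 39.4. Of its listed cofactors 6 were detected, such as Hdac2, Sin3a and Rcor1, and none of them passed 1.6-fold in any pair. In any pair at most 2.69% of all genes tested were higher and at most 3.44% lower, so nothing is read from such short lists holding none. Over all 154 listed genes on the array, which leave out the 4 members, counts by normalized difference were as follows. Relative to parental cells, 2 of 78 tested were higher and 2 lower in Rb-deleted cells, 1 of 75 was higher in WT Rb cells, and 1 of 77 was higher and 2 lower in dCDK Rb cells. These stand beside 2.2% higher and 3.06% lower, 0.941% higher and 2.61% lower, and 2.69% higher and 3.44% lower over all genes. From Rb-deleted to dCDK Rb cells 4 of 79 were higher and 4 lower, or 5.06% in each direction, beside 2.36% and 1.99% of all genes. Of these 8, Gal and Ace were not detected on the dimmer array and had bounds under 1.6-fold. From WT Rb to dCDK Rb cells 1 of 75 was higher and 1 lower, and none of 76 passed 1.6-fold between WT Rb and Rb-deleted cells.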

How the data were processed

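The authors deposited 1 table with the mean bead intensity of each probe, linear and not yet normalized. It also holds a detection p-value per probe and array, deposited in steps of 1 in 936, the bead standard error of the signal as the authors' scanner software gave it, and the deposited count of beads, with a median of 44. The software and its settings are not given in the sources used here. No build is named for the probe coordinates, and they were left out.

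Background was corrected by normexp in limma 3.58.1 (R 4.3.3), which took the background level from the detection p-values, at an offset of 16, followed by quantile normalization and log2. The offset pulls dim genes toward 0. A gene was tested in a pair of arrays if its brightest probe was detected (p below 0.01) on at least 1 of both, and called past 1.6-fold by its normalized difference if also detected on the brighter array. This left 12616 genes detected on at least 1 array. Bead errors were carried through each array's mapping to log2 and combined over the pair. No p-values were computed, with 1 array per condition, and the number of arrays limits the precision. The calculation was tested on simulated data. Further steps used Python 3.11.15 with pandas 2.3.3.

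The members and all lists were chosen with earlier results of these data known. Genes named are the members, Rb1, the markers, up to 3 genes per list with the largest difference past 1.6-fold, genes listed as detected or at background, and the 3 nearest patterns of each member that passed 1.6-fold. Alternatives changed the background correction, offset, normalization, detection limit, probes per gene and fold.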

Additional observations from a re-analysis of the deposited data

How the results depend on the processing

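For the 4 genes in 6 pairs, no alternative turned a direction past 1.6-fold, and every difference past 1.6-fold stayed past it. Median scaling moved none of the 24 differences beyond its 95% bead interval. The mean of detected probes could not move them, since each gene has a single detected probe. Using the bead error of the deposited intensities changes only the error and not the difference. A detection p-value below 0.05 changed only the Scg2 differences in dCDK Rb cells, from bounds to measured values. Their intervals are centred on these same values, so the values could not leave them. Without background correction Cck in dCDK Rb relative to parental cells was 2.07, and the bounds of Scg2 in dCDK Rb cells were -0.87, -1.17 and -1.64 relative to parental, WT Rb and Rb-deleted cells. An offset of 50 gave Cck 1.99 in dCDK Rb, 1.05 in WT Rb and 1.00 in Rb-deleted cells relative to parental cells, and Scg2 bounds of -0.77, -1.05 and -1.49 in the same order. With neither correction nor normalization Cck was 2.00 in dCDK Rb and 1.08 in WT Rb cells, and the Scg2 bounds were -0.89, -1.18 and -1.65. The settings without correction leave background in the signal, and the offset of 50 adds a constant after correction. Either shrinks ratios of dim probes.

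Counts of all genes past 1.6-fold depended more on the setting. Between Rb-deleted and parental cells the 646 genes became 386 without background correction, 339 with an offset of 50, 408 with neither step and 225 at 2-fold. Between WT Rb and parental cells the 422 became 250, 220, 259 and 168 in that order of settings. Between dCDK Rb and parental cells the 741 became 435, 385, 450 and 258. Between WT Rb and Rb-deleted cells the 129 became 63, 55, 62 and 35, between dCDK Rb and Rb-deleted cells the 538 became 279, 247, 278 and 168, and between dCDK Rb and WT Rb cells the 233 became 123, 114, 122 and 63. Of the listed genes other than the members, those past 1.6-fold between Rb-deleted and parental cells fell from 4 to 2 under all 4 settings, and those between dCDK Rb and Rb-deleted cells from 8 to 5, 4, 4 and 3. Between dCDK Rb and parental cells they fell from 3 to 1, 1, 1 and 0. Between dCDK Rb and WT Rb cells they fell from 2 to 1 without background correction, with an offset of 50 and at 2-fold, and between WT Rb and parental cells from 1 to 0 at 2-fold. No paired analysis was possible because each condition has 1 array, and for the same reason no replicate could be left out. Signal over background limits what can be said of Scg2 in dCDK Rb cells, and the second probes of Scg2 and Vgf gave no value above background on any array, for which the cause was not tested.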
